A study of Mus musculus with 4 samples.

Results

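Genes of cholesterol synthesis, of its control by the SREBP transcription factors and of fatty acid synthesis were examined in fibroblasts taken from mouse mammary tumours. The members were 32 genes, chosen by name for their roles in these pathways. All 32 were among the 22456 genes of the deposited table, and all 32 passed the filter on low values (an average over the 4 libraries of 3.32 or more, which is log2 of 10).

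The tumours grew in Balb/cAnN mice from 4T1 cells, a mouse mammary carcinoma line that can be transplanted into this strain, and the fibroblasts were taken 8 days after injection into the fat pad. In the DMSO group (2 libraries) the 4T1 cells had been kept in the solvent for 5 days before injection. In the GSK group (2 libraries) they had been kept for 5 days in 5 µM of the compound GSK269962A. The compound was given to the cancer cells, per the labels, and the fibroblasts are host cells. They are the fraction left after cells bearing CD45, CD31, CD326 or human CD2 were removed on magnetic columns. Nothing in the labels says that a group's libraries are from different animals, and the p-values then reflect the spread between these samples alone, which may be technical.

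Cells make cholesterol from acetyl-CoA through mevalonate, the isoprenoids and squalene, in a long chain of enzymes in the cytosol, endoplasmic reticulum and peroxisome. When membrane sterol falls, SCAP carries the SREBP precursors from the endoplasmic reticulum to the Golgi, where they are cleaved, and the released factors switch on most genes of the chain. INSIG proteins hold SCAP back when sterol is plentiful, and oxysterols then act through the nuclear receptors LXR to raise the efflux pumps ABCA1 and ABCG1. SREBP-1 acts mainly on fatty acid synthesis and SREBP-2 mainly on sterol synthesis. In fibroblasts these pathways supply membrane lipid.

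The authors' values are on a log2 scale, between -1.04 and 20.58 over the table, and how they were transformed was not given in the sources used here. Had they been pulled towards each gene's mean, differences would be understated, which was not tested. The table holds no read counts, so library depth is unknown and limits on low genes cannot be stated. The fraction carried a fibroblast profile, with the 12 fibroblast markers averaging 15.65, from Fap at 10.76 to Col1a1 at 20.51. Pericyte and smooth muscle markers, which the isolation did not target, averaged 10.80. Markers of mammary epithelium and 4T1 cells averaged 1.93, of leukocytes 2.53, of macrophages 3.50, of endothelium 3.67 and of adipocytes 4.15. The defining genes Epcam (0.32), Adgre1 (0.79) and Plin1 (1.0) lay near the floor, while single markers stood higher, namely Fabp4 of adipocytes at 9.57, Cd3e of T cells at 8.62, Csf1r of macrophages at 8.28 and Esam of endothelium at 7.41.

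Every enzyme of the chain in the list was expressed. Levels between genes were compared per length, as the deposited log2 value minus log2 of the length in kilobases of the principal GENCODE transcript. On that scale Scd2, a stearoyl-CoA desaturase, was highest at 10.99 and its paralog Scd1 lay at 7.68. Fdps, which makes farnesyl pyrophosphate, followed at 9.32, then Ebp, a sterol isomerase, at 9.11, Hmgcs1, which makes HMG-CoA from acetyl-CoA, at 8.98 and Acly, which supplies cytosolic acetyl-CoA, at 8.96. The regulators lay close together per length, with Srebf2 at 8.72, Insig1 at 8.66, Srebf1 at 8.59, Scap at 8.48 and Insig2 at 7.76. The lowest members per length were Elovl6, which elongates saturated fatty acids, at 4.67, Tm7sf2, a sterol reductase, at 5.2, Hsd17b7, a sterol ketoreductase, at 5.89 and Lss, which closes the sterol rings, at 5.93. The libraries of Ebp and Hmgcs1 overlapped on this scale, so these neighbours in the order did not separate.

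**Figure D1:**
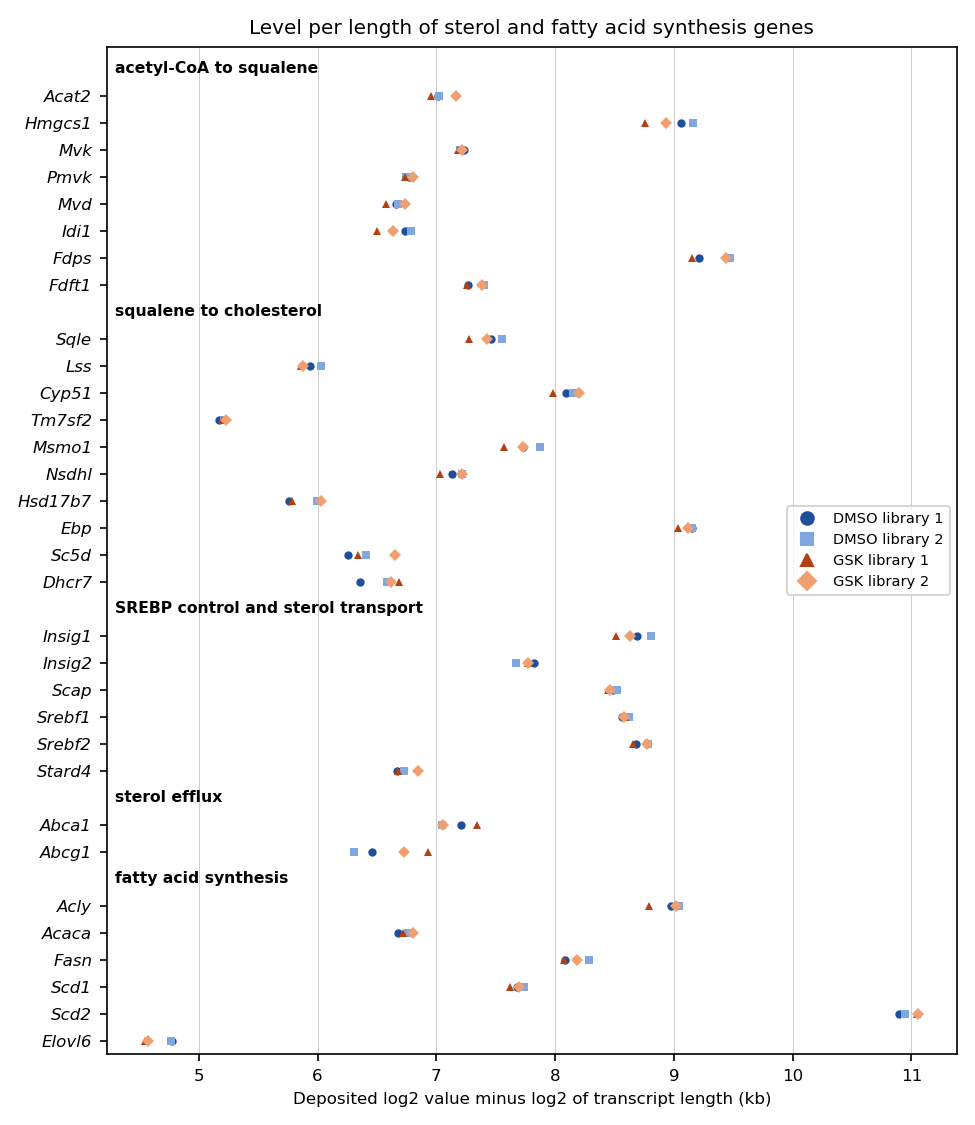
Level of each member per length in each library (x axis, deposited log2 value minus log2 of the transcript length in kb), grouped by role, with circles and squares for DMSO libraries 1 and 2 and triangles and diamonds for GSK libraries 1 and 2. Scd2 stands highest at a mean of 10.99 and Elovl6 lowest at 4.67, and the 4 libraries of a gene lie close together beside the differences between genes.

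Setting GSK against DMSO addresses how tumour fibroblasts differ when the cancer cells had been pre-treated. None of the 32 members passed a limma adjusted p of 0.05, in a fit where 41 of 14548 tested genes (0.282%) did, 0.151% higher and 0.131% lower, and 6 members had an unadjusted p under 0.05, against 16.0% of all tested genes. Their changes (GSK minus DMSO, log2) ran from -0.27 for Hmgcs1 to 0.45 for Abcg1. The median was -0.014 over the members and -0.001 over all tested genes. It was 0.032 without GSK library 1, so its sign rested on that library. With any other single library left out it stayed below 0, from -0.079 without GSK library 2 to -0.003 without DMSO library 2. In 11 members (34.4%) the values of the groups did not overlap, against 48.6% of all tested genes, a smaller share than the background. Of these, 8 were lower in GSK (24.5% of all tested genes were) and 3 higher (24.1%).

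**Figure D2:**
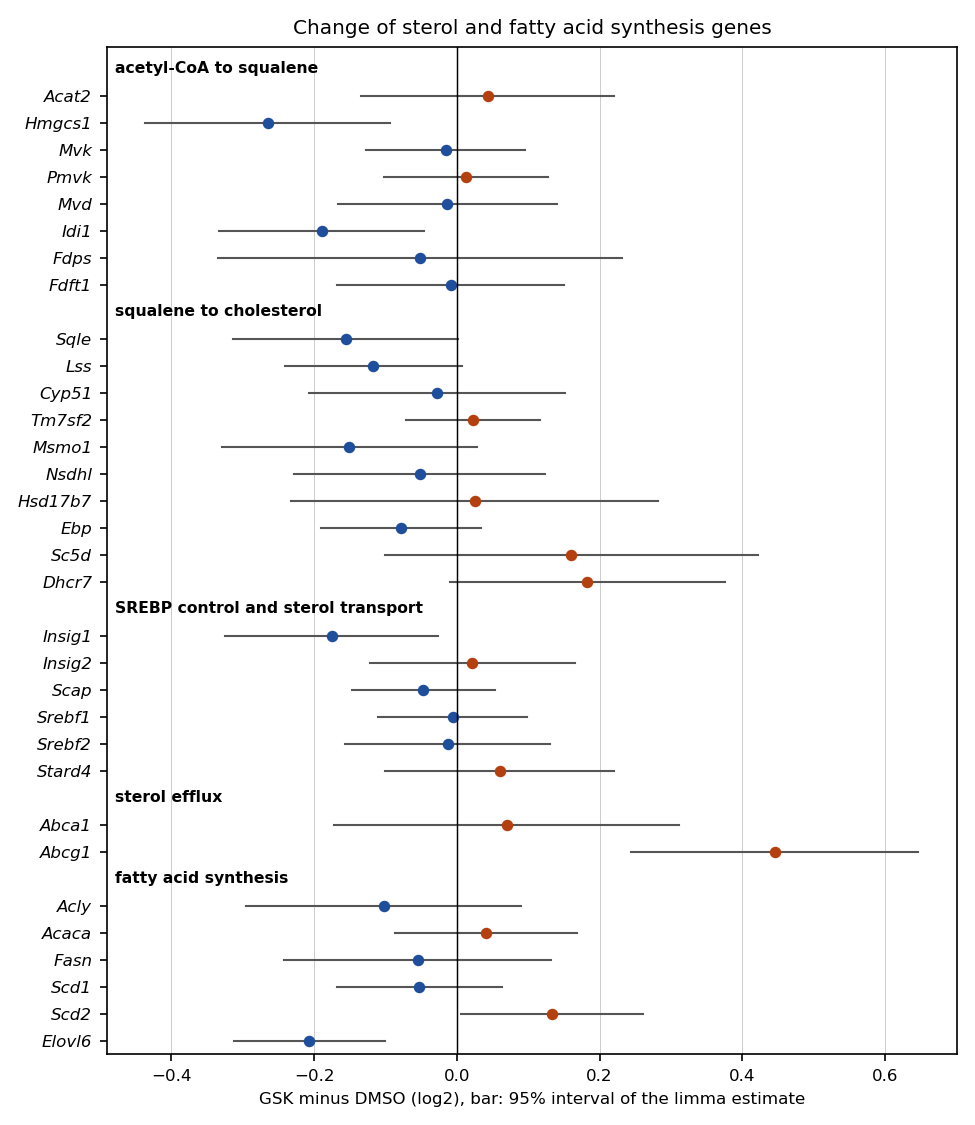
Change of each member (x axis, GSK minus DMSO, log2) with the 95% interval of the limma estimate as a bar, grouped by role; red points are above 0 and blue points below. Abcg1 stands farthest above 0 at 0.45 and Hmgcs1 farthest below at -0.27, and most other intervals cross 0.

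From acetyl-CoA to squalene, none of 8 members passed the test, and 2 had an unadjusted p under 0.05 in limma (16% of all tested genes did). The groups did not overlap in 2 (25%, against 48.6% of all tested genes), Hmgcs1 and Idi1, both lower in GSK. Hmgcs1 (ENSMUSG00000093930, GRCm38 chromosome 13, 119690379 to 119708260) had deposited log2 values of 10.86 and 10.95 in the DMSO libraries and of 10.55 and 10.73 in the GSK libraries, here and below with library 1 first. GSK library 1 was the lowest of the 4. The change was -0.27 ± 0.07 (SE), with a limma adjusted p of 0.155, and it lay between -0.36 and -0.17 with each library left out in turn. Hmgcs1 overlaps 557 exonic bases of Gm48342 on the other strand, a gene with no values here, and is uncertain to that extent.

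Idi1, which interconverts the isoprenoid building blocks (chromosome 13, 8885501 to 8892451), had 8.33 and 8.38 in DMSO and 8.10 and 8.24 in GSK. The groups did not overlap, and GSK library 1 was again the lowest. The change was -0.19 ± 0.06 (SE, limma adjusted p = 0.199), and -0.12 without GSK library 1. Acat2, an acetoacetyl-CoA thiolase at the entry of the chain, had 8.18 and 8.19 in DMSO and 8.12 and 8.33 in GSK, which enclosed the DMSO values. Its transcripts match the paralog Acat3 over 1414 bases at 98.52% identity and Tcp1, on average at 12.15, over 445 bases, so its value is uncertain. The other 5 of this stretch (the kinases Mvk and Pmvk, the decarboxylase Mvd, Fdps and the squalene synthase Fdft1) changed by -0.05 to 0.01, with limma adjusted p-values of 0.861 to 0.964. Fdps varied most among them, with 9.68 and 9.94 in DMSO and 9.62 and 9.90 in GSK, so that the libraries of a group differed more than the groups. Fdft1 overlaps 774 exonic bases of Ctsb, a cathepsin gene on the other strand at 14.39, and is uncertain because the strand used in counting was not given in the sources used here. Idi1 shares 684 identical bases with Gm13502, which lay at 3.40.

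From squalene to cholesterol, none of 10 members passed, and 0 had an unadjusted p under 0.05 in limma (16% of all tested genes did). The groups did not overlap in 40%, against 48.6% of all tested genes, with 3 lower and 1 higher in GSK. The list's changes ran from -0.16 to 0.18. Sqle, squalene epoxidase, a rate-limiting step, had 8.92 and 9.02 in DMSO and 8.74 and 8.89 in GSK, a change of -0.16 ± 0.07 (SE, limma adjusted p = 0.318), which was -0.08 without GSK library 1. The gap between the groups was small beside the spread within them, where library 1 was below library 2 in both groups. Lss had 8.16 and 8.25 in DMSO and 8.08 and 8.10 in GSK, a change of -0.12 ± 0.05 (limma adjusted p = 0.335), which was -0.07 without DMSO library 2. Ebp was the other gene lower without overlap, at -0.08, and at -0.04 without GSK library 1.

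Dhcr7, which carries out the last reduction to cholesterol, went the other way, with 7.85 and 8.08 in DMSO and 8.18 and 8.11 in GSK. DMSO library 1 stood below the other 3, and the change of 0.18 ± 0.08 (SE, limma adjusted p = 0.33) was 0.07 without that library. Its transcripts hold stretches of 201 to 226 bases that match several other genes. Sc5d, the sterol desaturase just before it, had 8.52 and 8.67 in DMSO and 8.60 and 8.91 in GSK, and its change of 0.16 was 0.00 without GSK library 2. The sterol demethylases Cyp51 and Msmo1 were at -0.03 and -0.15, the latter at -0.07 without GSK library 1, the dehydrogenase Nsdhl at -0.05 and Hsd17b7 and Tm7sf2 at 0.02 each. Tm7sf2 shares 532 bases with its neighbour Vps51, which lay at 8.87, and is uncertain.

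None of the 6 genes of SREBP control and sterol transport passed. An unadjusted p under 0.05 in limma was found for 1, Insig1 (16% of all tested genes had one). The SREBP genes themselves had estimates near 0. Srebf1 (chromosome 11, 60199089 to 60222581) had 10.67 and 10.72 in DMSO and 10.69 and 10.69 in GSK, a change of -0.01 with a 95% interval of -0.11 to 0.10. Srebf2 (chromosome 15, 82147181 to 82205379) had 11.03 and 11.12 in DMSO and 11.00 and 11.12 in GSK, a change of -0.01 with an interval of -0.16 to 0.13. These intervals hold changes of up to about those sizes in either direction, and the files measure RNA, not cleavage of the proteins. Scap had 10.57 and 10.60 against 10.53 and 10.54, a change of -0.05 ± 0.04 (SE, limma adjusted p = 0.624).

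Of the INSIG pair, Insig1, itself a target of the SREBP factors (chromosome 5, 28071363 to 28078662), had 10.12 and 10.24 in DMSO and 9.95 and 10.06 in GSK. The groups did not overlap, with a change of -0.18 ± 0.06 (SE, limma adjusted p = 0.246). It was -0.11 without DMSO library 2 and -0.24 without DMSO library 1. Insig2 had 9.25 and 9.10 in DMSO and 9.20 in both GSK libraries, a change of 0.02 (limma adjusted p = 0.89). The difference between the changes of the pair was not tested. Stard4, a cytosolic sterol carrier, had 9.02 and 9.08 in DMSO and 9.02 and 9.20 in GSK, a change of 0.06 ± 0.07 (limma adjusted p = 0.699).

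The bases before the starts of 3 members that were lower in GSK without overlap and had the smallest p-values in their roles are shown, to compare the motifs that SREBP factors and their partner NF-Y bind. RefSeq windows on GRCm38.p6 were available here for 25 of the 32 members. Capitals mark the sterol regulatory element TCACNCCAC and the NF-Y box CCAAT, searched on both strands, where a box on the other strand reads ATTGG. Each sequence is on the plus strand and ends before the start of the gene in both RefSeq and GENCODE. The windows are chr13:119690101-119690350 for Hmgcs1, chr5:28071162-28071362 for Insig1 and chr3:129532136-129532354 for Elovl6.
Hmgcs1: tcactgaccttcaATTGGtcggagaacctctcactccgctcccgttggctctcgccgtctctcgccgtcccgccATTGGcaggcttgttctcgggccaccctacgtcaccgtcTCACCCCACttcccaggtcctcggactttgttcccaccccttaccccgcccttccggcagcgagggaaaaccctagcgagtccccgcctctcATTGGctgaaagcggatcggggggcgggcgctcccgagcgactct
Insig1: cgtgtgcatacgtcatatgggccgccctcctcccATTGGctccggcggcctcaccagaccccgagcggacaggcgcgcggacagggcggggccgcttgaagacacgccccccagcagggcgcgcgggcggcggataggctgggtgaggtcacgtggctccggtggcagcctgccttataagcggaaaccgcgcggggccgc
Elovl6: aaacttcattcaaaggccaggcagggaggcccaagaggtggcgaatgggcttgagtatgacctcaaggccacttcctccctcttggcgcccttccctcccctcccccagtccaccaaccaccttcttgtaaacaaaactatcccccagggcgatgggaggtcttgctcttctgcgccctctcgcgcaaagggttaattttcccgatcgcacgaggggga
The Hmgcs1 window held 1 sterol regulatory element, which begins 137 bases before the RefSeq start, and 3 NF-Y boxes. The Insig1 window held 1 NF-Y box and the Elovl6 window neither motif. In windows of 250 bases, the strict sterol element was found in 1 of the 25 members (4%) and in 1.22% of 27025 genes. The NF-Y box was found in 19 of the 25 (76%) and in 37.5% of genes. A match is a description of these letters, and no other form of either motif is reported.

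Among the efflux pumps, Abcg1, which passes sterol to lipoprotein particles (chromosome 17, 31057675 to 31117988), had the largest change of all members. It had 9.0 and 8.85 in DMSO and 9.48 and 9.27 in GSK, so both GSK libraries lay above both DMSO libraries. The change was 0.45 ± 0.08 (SE), or 1.36-fold, with a 95% interval of 0.24 to 0.65 and a limma adjusted p of 0.0828. It ranked 269 by p among the 14548 tested genes and lay between 0.34 and 0.55 with each library left out. Abca1, which loads sterol and phospholipid onto apolipoproteins, had 10.57 and 10.41 in DMSO and 10.70 and 10.42 in GSK, a change of 0.07 ± 0.10 (limma adjusted p = 0.776). In both groups Abca1 and Abcg1 were higher in library 1 than in library 2, opposite to most enzymes of the chain.

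Macrophages also express these pumps. Macrophage markers had a summed level (log2 of the summed linear values) of 8.78 to 8.87 in DMSO and 8.67 to 8.80 in GSK, with 0 of the 4 tested past the threshold. Most of this sum was Csf1r, at 8.28 in the mean, while Adgre1 lay at 0.79. The summed level of the 8 pericyte and smooth muscle markers was 13.92 and 14.20 in DMSO and 14.33 in both GSK libraries. Of the 8, 0 passed the threshold. The change was above 0 in 6, from 0.13 for Des to 0.49 for Cspg4. It was below 0 in 2, Kcnj8 at -0.21 and Abcc9 at -0.12. The part of these cells in the result for Abcg1 was not tested. In bulk RNA a different share of such cells and a different level per cell cannot be told apart.

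Of the fatty acid synthesis genes none of 6 passed, and 2 had an unadjusted p under 0.05 in limma (16% of all tested genes did). The groups did not overlap in 33.3%, against 48.6% of all tested genes, with 1 lower and 1 higher in GSK. Elovl6 (chromosome 3, 129532355 to 129638495) had 7.35 and 7.34 in DMSO and 7.12 and 7.15 in GSK, so the libraries of a group differed by less than the groups did. The change was -0.21 ± 0.04 (SE, limma adjusted p = 0.106) and stayed between -0.22 and -0.19 with each library left out. Scd2 (chromosome 19, 44293674 to 44306864) had 13.34 and 13.39 in DMSO and 13.50 and 13.51 in GSK, a change of 0.13 ± 0.05 (SE, limma adjusted p = 0.288). Scd1 was at -0.05, from 9.95 and 10.01 to 9.90 and 9.97, with overlapping groups. The 2 desaturase genes did not match each other over 200 bases at 98% identity.

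Acly had 11.11 and 11.18 in DMSO and 10.93 and 11.16 in GSK, where GSK library 1 stood apart, and its change of -0.10 ± 0.08 (limma adjusted p = 0.574) was 0.01 without that library. Fasn, the fatty acid synthase, was at -0.05, and Acaca, which makes malonyl-CoA, at 0.04. Acaca matches Gm5182, a gene with no values here, over 6118 bases at 99.2% identity. Adipocytes carry high levels of these genes. Of the 12 adipocyte markers 6 were in the table, with a summed level of 9.72 to 9.76 in DMSO and 9.81 to 9.85 in GSK, most of it Fabp4 (9.57). Plin1 lay at 1.0 in the mean and Cfd at 1.77, 0 of the 3 tested markers passed the threshold, and their part in the results of this group was not tested.

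The members varied more between libraries of a group than most genes did. The median absolute difference between libraries was 0.084 in DMSO and 0.119 in GSK for the members, and 0.046 and 0.050 for all tested genes. The members largely moved together: library 1 was below library 2 for 25 of 32 members in DMSO and for 28 of 32 in GSK. Over all 14548 tested genes it was below in 49.6% in DMSO and 49.5% in GSK. GSK library 1 was the lowest of the 4 libraries in 21 of the 32 members, against 22.8% of all tested genes. This held for all 8 members from acetyl-CoA to squalene, 6 of 10 from squalene to cholesterol and 4 of 6 in fatty acid synthesis, and for neither pump. The mean over the 10 members from squalene to cholesterol was 8.42 and 8.53 in DMSO and 8.39 and 8.52 in GSK, with library 1 first. The libraries of a group differed there by more than the groups did. Whether same-numbered libraries are paired is unknown, and a fit with that number as a block is given at the end. For 17 of the 32 members the sign of the change turned when some single library was left out. The share among all tested genes was not counted, and the 17 include changes near 0, such as Mvk at -0.02 and Srebf1 at -0.01.

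**Figure D3:**
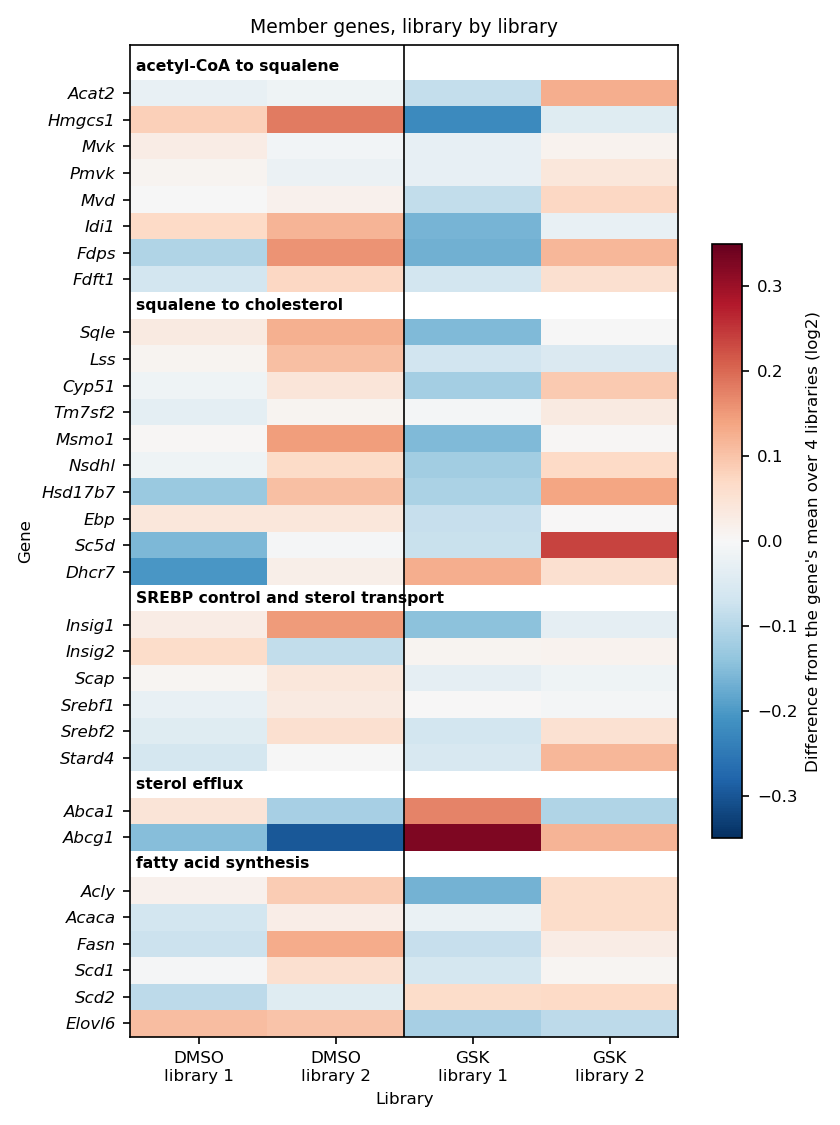
Difference of each member from its own mean over the 4 libraries (colour, log2; red above, blue below), with libraries as columns and genes as rows grouped by role. Most enzymes are lowest in GSK library 1, which holds the minimum of 21 of 32 members, and Abcg1 is high in both GSK libraries.

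Other genes around these pathways were read from the same fit, in 5 lists set by role. Of 79 genes 74 were tested, and none passed a limma adjusted p of 0.05. An unadjusted p under 0.05 in limma was found in 18, against 16% of all tested genes, and the median change was -0.001. Both GSK libraries lay outside the DMSO range in 33 of the 74 (44.6%), 12 higher and 21 lower, beside 48.6% of all tested genes. Over all tested genes 24.1% were higher and 24.5% lower without overlap. Elovl3, Elovl7, Thrsp and Mlxipl lay below the filter, at -0.40, 2.89, 0.34 and 1.16, and Spring1 found no match in the annotation.

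Storage and uptake genes held the smallest p-values. Dgat2, which makes triglyceride (chromosome 7, 99153658 to 99182719), had 5.76 and 5.77 in DMSO and 5.50 and 5.52 in GSK. The change was -0.26 ± 0.03 (SE), with a limma adjusted p of 0.0546. Gpam, which starts glycerolipid synthesis, had 8.61 and 8.66 against 8.40 and 8.45, a change of -0.21 ± 0.05 (limma adjusted p = 0.118). Both lay below DMSO in both GSK libraries, as did Elovl6.

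Scarb1, a receptor for high-density lipoprotein (chromosome 5, 125277087 to 125341094), had 9.27 and 9.31 in DMSO and 9.64 and 9.51 in GSK. The change was 0.29 ± 0.06 (SE), or 1.22-fold, with a limma adjusted p of 0.0892. Lrp8, a lipoprotein receptor, was at -0.15 (limma adjusted p = 0.179). Soat1, which esterifies cholesterol for storage, had 12.20 and 12.13 in DMSO and 12.44 and 12.32 in GSK, a change of 0.21 ± 0.06 (limma adjusted p = 0.162). Lpcat3, a phospholipid acyltransferase and LXR target, had 10.18 and 10.10 against 10.03 and 9.95, a change of -0.15 ± 0.05 (limma adjusted p = 0.227). It overlaps 334 exonic bases of Emg1 on the other strand. In both GSK libraries Abcg1, Scarb1 and Soat1 lay above the DMSO libraries and Lpcat3 below them, none past the threshold. These genes were named for small p-values, and 48.6% of all tested genes had groups that did not overlap. Abca1, at 0.07, overlapped, as did 8 of the 13 genes in the list that holds Soat1 and Lpcat3.

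Cav1, which encodes the caveolar coat protein, was named after its values were seen, as the largest change of these lists. It had 11.66 and 11.04 in DMSO and 11.02 and 10.66 in GSK, so the groups did not overlap and DMSO library 1 was the highest of the 4. The change was -0.51 ± 0.21 (SE), with a 95% interval of -1.02 to -0.01 and a limma adjusted p of 0.305. It passed the threshold without DMSO library 2 (limma adjusted p = 0.0489), with a change of -0.82, and was at -0.20 without DMSO library 1.

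In the remaining lists, Pdss1, which builds the side chain of coenzyme Q, was at -0.17 ± 0.04 (SE, limma adjusted p = 0.143) and Acat1, the mitochondrial thiolase, at -0.14 ± 0.05 (limma adjusted p = 0.216). Tmem97, a sterol-responsive membrane protein, had 10 and 9.97 in DMSO and 9.79 and 9.86 in GSK, a change of -0.16 ± 0.04 (limma adjusted p = 0.17). Fbxw7, which marks nuclear SREBP for breakdown, had 7.86 in both DMSO libraries and 8.00 and 8.01 in GSK, a change of 0.14 ± 0.04 (limma adjusted p = 0.193). All 4 had groups that did not overlap, as had 48.6% of all tested genes, and these 4 were named for their small p-values.

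**Figure D4:**
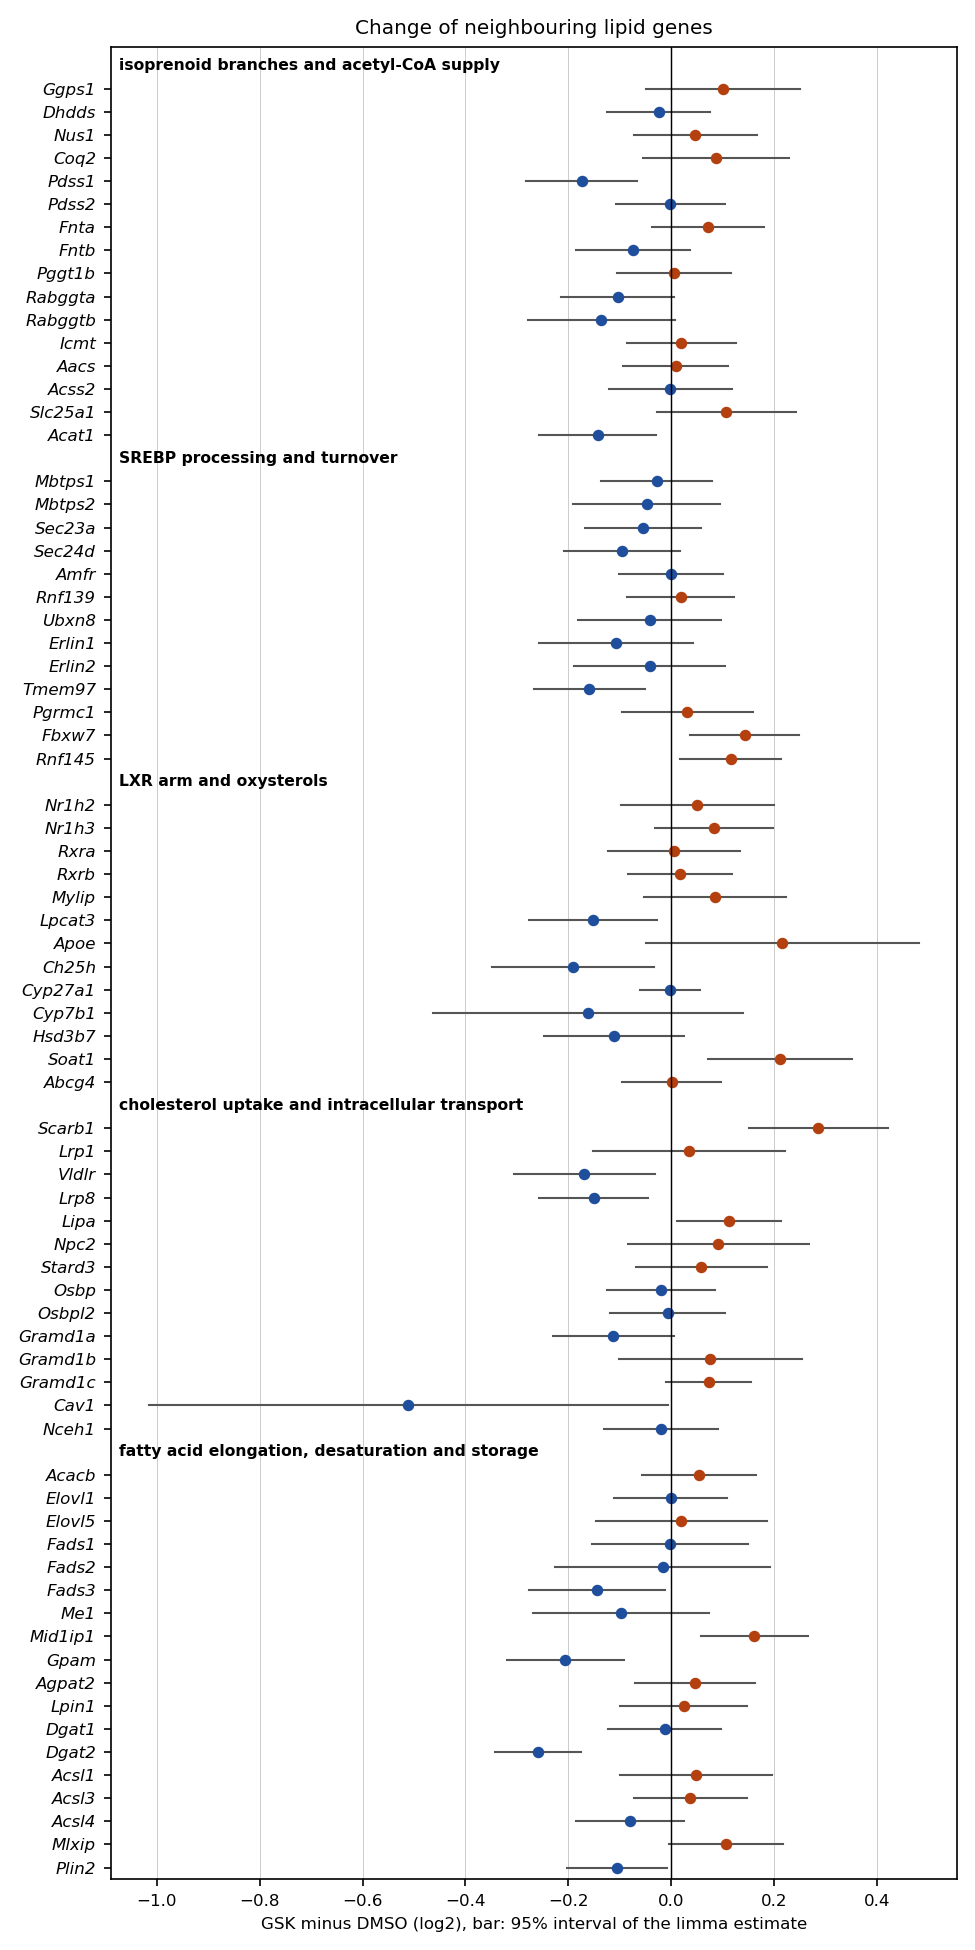
Change of the 74 tested neighbouring genes (x axis, GSK minus DMSO, log2) with the 95% interval of the limma estimate as a bar, grouped by list; red points are above 0 and blue points below. Dgat2 at -0.26 and Scarb1 at 0.29 are among 18 genes whose unadjusted interval does not cross 0. Cav1 at -0.51 is another of these and has the widest interval.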

How the data were processed

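Libraries were grouped by the sample titles. The deposited table holds the authors' normalised log2 values in 1 column for each library. Tools listed in the submitters' processing notes are DESeq2 1.12.4, RSEM 1.2.29 and Bowtie2, and the builds listed are GRCh38 and mm10, all with no role stated. How the log2 values were transformed was not given in the sources used here. At the full deposited precision, no gene had identical values in both libraries of a group.

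Of 22456 identifiers, 22357 matched GENCODE M21 (GRCm38), the source of symbols, coordinates and lengths. limma 3.58.1 in R 4.3.3 was fitted to the deposited values of the 14548 genes that averaged 3.32 or more, with the group as the only term, a variance prior that follows the mean, two-sided p-values and Benjamini-Hochberg adjustment over all tested genes at 0.05. SE is limma's moderated standard error. The fit was tested on simulated data. Shared sequence was sought with blastn 2.17.0 (at least 98% identity over 200 bases).

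The members and lists were chosen with earlier results of these data known. Values per library were given for the 3 members with the smallest p in each role and any past the threshold, and the 2 smallest in each neighbouring list were named; Fdps, Sc5d, Ebp, Srebf1, Srebf2, Insig2, Scd1 and Cav1 were described after their values were seen. Alternatives were other filters, scalings and variance priors, the replicate number as a block, and each library left out.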

Additional observations from a re-analysis of the deposited data

How the results depend on the processing

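No member passed under 10 of the 11 alternatives. With the replicate number as a block, 5 did (Abcg1, Hmgcs1, Insig1, Elovl6 and Idi1, with limma adjusted p-values of 8.12e-04, 0.00535, 0.0226, 0.0321 and 0.0426), as did 12 neighbouring genes (Cav1 at 0.00238 among them) and 1374 of all tested genes. The labels give same-numbered libraries no shared source, so whether they are paired is unknown, and the reported fit did not pair them. Across all tested genes the differences between libraries 1 and 2 in DMSO and in GSK correlated at 0.43, and across the 32 members at 0.63. All tested genes called numbered 41 in the reported fit, 1 with no filter, 23 after quantile normalisation, 11 without a variance trend, 138 with a robust prior and 7 to 194 with each library left out (7 without DMSO library 1, 194 without DMSO library 2, 70 without GSK library 1). Of the neighbouring genes, 1 passed with a robust prior (Dgat2) and 0 to 1 with a library left out (Cav1, without DMSO library 2). The median change of the members ran from -0.079 to 0.032 with each library left out. Changes (log2) whose sign turned when a library was left out ran as follows: Abca1 -0.07 to 0.21, Acaca 0.00 to 0.08, Acat2 -0.06 to 0.15, Acly -0.22 to 0.01, Cyp51 -0.13 to 0.08, Fasn -0.16 to 0.05, Fdft1 -0.08 to 0.06, Fdps -0.19 to 0.09, Hsd17b7 -0.10 to 0.15, Insig2 -0.05 to 0.10, Mvd -0.09 to 0.07, Mvk -0.04 to 0.00, Nsdhl -0.15 to 0.04, Pmvk -0.02 to 0.05, Srebf1 -0.03 to 0.02, Srebf2 -0.07 to 0.05 and Stard4 -0.03 to 0.15. Under the filters, scalings and priors no named gene or member changed sign where it was tested; Dgat2 was not tested with the filter at a mean of log2 of 50. The cause of these dependences was not tested. Depth is unknown, so what it limits could not be stated.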
